A study of Mus musculus with 3 samples.

Results

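Retained introns are stretches that some transcripts of a gene splice out and that other transcripts of the same gene keep inside an exon. They were searched for in PacBio long-read transcript models of mouse CD4+ T cells, pooled over 3 libraries. An intron was taken as retained if it lay wholly inside an exon of another spliced model on the same strand and if the model that spliced it and the model that kept it shared at least 1 other exact intron. Of 68985 distinct introns, 3091 met this rule, or 4.48% (exact 95% interval 4.33 to 4.64%). The 3091 introns lay in 1490 genes, of which 793 had 1 such intron, 322 had 2 and 375 had 3 or more, and 34 introns could be assigned to no gene. Because alternative splice sites give overlapping introns, they covered 2495 separate stretches, and 2136 introns overlapped no other. The introns were chosen by the measured exon positions, so their number and their 2 forms are descriptions and not findings. Just inside the rule, 215 introns rested on a pair of models that shared exactly 1 other intron (median length 488.0 nt), and just outside it, 33 introns lay inside an exon of a model that shared none (median 293.0 nt).

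The cells came from spleens and lymph nodes of male wild-type C57BL/6N mice, 6 to 10 weeks old by the study's methods, and the number of mice behind each library is not given in the sources used here. Naive cells were compared with cells stimulated for 48 h by antibodies against CD3 and CD28 that had not divided (undivided, peak 0) and with cells stimulated for 48 h that had divided 2 times (peak 2), the divisions being read from the dilution of the dye CellTrace Violet. There was 1 library per condition, so no condition could be tested against another, and every interval covers counting error only, with introns of a gene not independent of each other. The naive library was sequenced on another cell of the instrument than the pair of activated libraries, so naive against activated cannot be told apart from the sequencing cell.

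The libraries held 10527 models in the naive library, 12602 in the undivided library and 11109 after 2 divisions, of which 9047, 11716 and 10253 had several exons. Models with a lone exon, which play no part in the rule, made up 14.1% of naive models, 7.03% of undivided models and 7.71% of models after 2 divisions. Of 14 defining CD4 T cell genes, 14, 12 and 12 had a model in the naive library, undivided cells and cells after 2 divisions. Of 10 B cell genes 6, 2 and 2 had a model in the same order of libraries, of 9 myeloid genes 1, 0 and 0, of 6 CD8 and NK genes 2, 2 and 1, and of 6 erythroid and platelet genes 2, 0 and 0. The part of other cells in the results was not tested. The deposited models carry no read numbers, so each value below is a number of models, which says that a form was found and not how much of it there was, and fewer transcripts of a gene cannot be told apart from fewer sampled ones. Values given in threes stand for the naive library, the undivided library and the library after 2 divisions.

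Introns are removed by the spliceosome, which reads a GT at the start of the intron (5′ splice site) and an AG at its end (3′ splice site), preceded by a tract of pyrimidines. An intron that stays in the mature transcript usually brings a stop codon into the reading frame, and such transcripts can be held in the nucleus or degraded by nonsense-mediated decay. In lymphocytes, intron retention is known as a layer of control over splicing factors, signaling proteins and metabolic enzymes, and resting T cells are known to keep some partly spliced transcripts that can be processed after stimulation. Some introns also host small nucleolar RNAs (snoRNAs), which are cut from the intron after splicing and guide the modification of ribosomal RNA.

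The ends of 6 retained introns are printed to show the sites at which the 2 forms part. The first 3 had both forms in every library (Nop56, Lat and Srsf7), the next was retained in the naive library alone (Dgka), the next in both activated libraries alone (Gzmb), and the last is not in the annotation (Cd5). All were read from the GRCm38 sequence distributed by RefSeq. Capitals mark the first or the last 2 bases of the intron, and lower case outside them holds 6 exon bases before the 5′ splice site and 3 exon bases after the 3′ splice site. The 5′ windows stood at chr2:130276618-130276637 (Nop56, plus strand), chr7:126368172-126368191 (Lat, minus strand), chr17:80205248-80205267 (Srsf7, minus strand), chr10:128731310-128731329 (Dgka, minus strand), chr14:56260565-56260584 (Gzmb, minus strand) and chr19:10725229-10725248 (Cd5, minus strand). Of these introns, 5 began with GT and the Cd5 intron with GC.
Nop56 83-nt intron, 5′ splice site: ccatggGTcagtgcggagcg
Nop56 83-nt intron, 3′ splice site: ctgttcacactaggtgtttcctAGgca
Lat 79-nt intron, 5′ splice site: accaggGTgggtctggggtc
Lat 79-nt intron, 3′ splice site: cgtgttaactctcctttctcacAGagc
Srsf7 180-nt intron, 5′ splice site: aagcagGTatttaattaatg
Srsf7 180-nt intron, 3′ splice site: atcaacctggtcaaaacctttcAGgtt
Dgka 136-nt intron, 5′ splice site: attggtGTgagtgaccccca
Dgka 136-nt intron, 3′ splice site: aagggcttgcctctctcccccaAGgtc
Gzmb 136-nt intron, 5′ splice site: ctaaagGTgagacctgtccc
Gzmb 136-nt intron, 3′ splice site: ggactcttgcttcttccccaacAGctg
Cd5 117-nt intron, 5′ splice site: ggacagGCccctgggcctgg
Cd5 117-nt intron, 3′ splice site: tcctgcagagctgagggaccccAGgcc

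In 5 retained introns the first stop codon in the frame of the annotated protein is shown, as examples of how early it can stand. The windows start with 12 exon bases, and capitals mark the first in-frame stop codon after them. In Fos, which encodes a subunit of the transcription factor AP-1, it stood at intron bases 7 to 9 of a 117-nt intron (window chr12:85475688-85475714, plus strand). In the first intron of Gzmb, which encodes the protease granzyme B, it stood at bases 6 to 8 (chr14:56262081-56262106, minus strand), and in a 343-nt intron of the nucleolar protein gene Nop56 at bases 8 to 10 (chr2:130277121-130277148, plus strand). In a 92-nt intron of the ribosomal protein gene Rpl4 (chr9:64177793-64177814, plus strand) and in a 75-nt intron of Lat, which encodes an adaptor of the T cell receptor (chr7:126368036-126368057, minus strand), it stood at bases 2 to 4, made in part by the 5′ splice site itself.
Fos: acactccaagcggtaggtTGAaccagc
Gzmb first intron: ggacaaaggcaggtgagTAAgcaaca
Nop56 343-nt intron: ggccctgttcaggtaccagTGAgggcgc
Rpl4 92-nt intron: ccgagcaccacggTAGagtttt
Lat 75-nt intron: caacggctacctgTGAgtgggt

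A small class of introns is removed by the minor spliceosome, which reads another 5′ splice site and works more slowly than the major one. The letters TATCCTT at intron bases 2 to 8 on the sense strand were taken as a match to that site. They stood in 12 of 2615 annotated retained introns (0.459%, exact 95% interval 0.237 to 0.8%) and in 250 of 65586 annotated introns in all (0.381%). Put the other way, 12 of the 250 matching introns were retained, or 4.8% (2.5 to 8.23%), against 3.99% of all annotated introns, and the intervals overlap. A pair of unannotated retained introns, in Ncoa7 and Srsf5, also matched. The sites of the annotated ones are shown because the match is a matter of letters, with 6 exon bases first and the match in capitals, and the 2 Mapk11 introns share their site. Hsbp1, Nop2 and Prim1 introns ran from AT to AC, and the others from GT to AG.
Eif3k 594-nt intron: gcacatgTATCCTTgcagca
Gbp7 600-nt intron: gctgcagTATCCTTccaggg
Hsbp1 610-nt intron: gaaggaaTATCCTTttgatt
Mapk11 199-nt and 142-nt introns: acgactgTATCCTTggggag
Nop2 95-nt intron: accaggaTATCCTTtgagtg
Polr2e 72-nt intron: tcgatagTATCCTTtactct
Prim1 610-nt intron: ctgagaaTATCCTTtcctgc
Psma1 650-nt intron: gaagcagTATCCTTtatgtt
Psmc4 182-nt intron: aagactgTATCCTTctttgg
Rpl4 283-nt intron: ggaaatgTATCCTTgattag
Tcp1 350-nt intron: tggaatgTATCCTTgaatgt

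The retained Mapk11 introns, in a gene for a p38 kinase, were kept in 3 naive models and in none of the activated libraries. Few models spliced them, 1 of each library for the 199-nt intron and 1 naive model for the 142-nt intron. The 283-nt Rpl4 intron was retained in 2 naive models, 4 undivided models and 5 models after 2 divisions, and spliced in 3, 9 and 8. The 95-nt intron of Nop2, an rRNA methyltransferase gene, was retained in 1 naive and 1 undivided model. In Psma1 and Psmc4, which encode proteasome subunits, and in Gbp7, a gene for an interferon-induced GTPase, the intron was retained in 1 model after 2 divisions and in neither of the other libraries.

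The retained introns of the annotation were short. Over 2615 annotated retained introns the median length was 343.0 nt (quartiles 136.0 and 775.0 nt), against 1171.0 nt (390.0 and 2769.0 nt) over all 65586 annotated introns. Introns over 2000 nt made up 3.86% of the annotated retained introns (exact 95% interval 3.16 to 4.67%), against 34.1% of all annotated introns (33.7 to 34.4%). The rule needs the whole intron within an exon of a model, and the median length of the retaining models was 2432.0 nt in the naive library, 2293.0 nt in the undivided library and 2170.0 nt after 2 divisions, so long retained stretches had little room in a model. The part of model length in the difference was not tested.

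**Figure D1:**
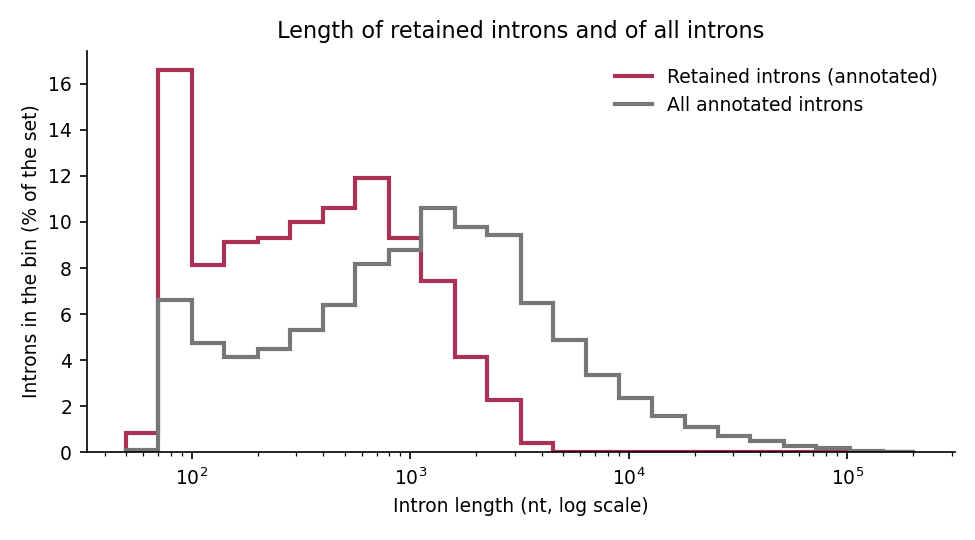
Length of annotated introns on a log axis in nt, as the percent of introns of each set per bin, for the retained introns (n = 2615) and for all annotated introns (n = 65586). The curve of the retained introns lies to the left, with a median of 343.0 nt against 1171.0 nt for all annotated introns.

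Of annotated introns of up to 80 nt, 15.8% were retained in some model (184 of 1162, exact 95% interval 13.8 to 18.1%). The share lay between 7.03% and 8.84% in each of the 5 length classes from 81 to 500 nt, then was 5.39% from 501 to 1000 nt, 2.62% from 1001 to 2000 nt and 0.741% from 2001 to 5000 nt. No annotated intron over 5000 nt was retained, 0 of 8713, which allows a share of up to 0.0344% at the limit of 3 counts and up to 0.0423% by the exact 95% interval. The 5 longest annotated retained introns lay in Clk4 (4468 nt), Rbm39 (4313 nt), Med20 (3822 nt), Srsf11 (3774 nt) and Pkm (3494 nt). Of these genes, Clk4 encodes a kinase of splicing factors, Rbm39 and Srsf11 encode splicing factors, Med20 a Mediator subunit and Pkm the glycolytic enzyme pyruvate kinase. The Pkm intron was retained in 1 model of each library and spliced in 2 naive, 15 undivided and 13 models after 2 divisions. The 5 shortest were a 65-nt intron of Rgs11 and 66-nt introns of Ccnd2, Cpsf1, Ctu2 and Sirt7.

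**Figure D2:**
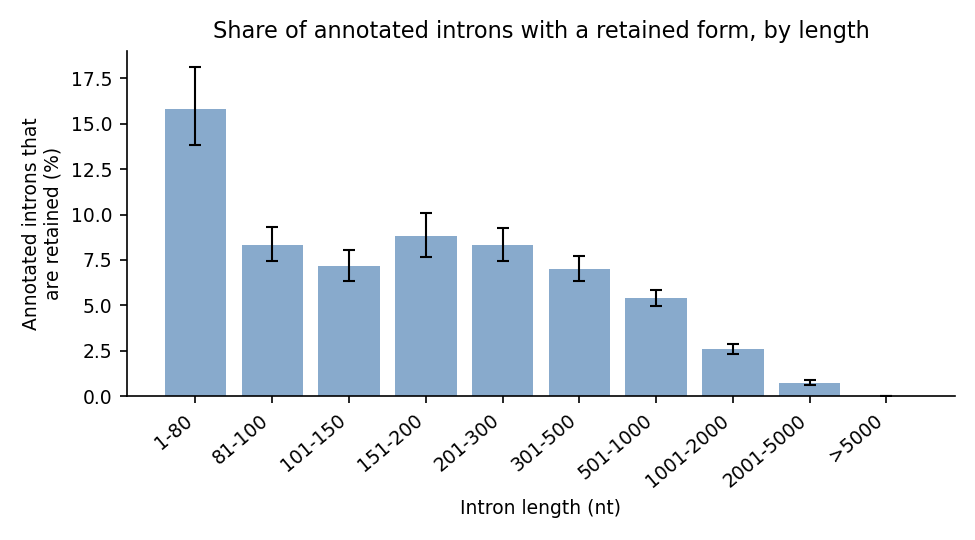
Bars show the percent of annotated introns in each length class (nt) that were retained in at least 1 model, with exact 95% intervals as error bars. The share was 15.8% up to 80 nt and 0 of 8713 over 5000 nt.

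Base composition went with length. The median GC content was 50.7% over the annotated retained introns, against 45.3% over all annotated introns, but the differences were smaller within length classes, with 57.1% against 56.9% up to 80 nt, 57.7% against 55.0% from 81 to 100 nt and 44.0% against 43.3% from 2001 to 5000 nt. The 5′ splice sites were compared over 9 bases (3 of the exon and 6 of the intron) with the consensus CAGGTAAGT. At most 5 bases matched in 27.0% of the annotated retained introns (706 of 2615, exact 95% interval 25.3 to 28.7%), against 16.3% of all annotated introns (16 to 16.6%). The mean number of matching bases was lower in the retained introns in each of the 9 length classes that held any, by the least up to 80 nt (6.32 against 6.36) and for example 5.95 against 6.25 from 201 to 300 nt. All 9 bases matched in 11 of 2615 annotated retained introns (0.421%), against 0.875% of all annotated introns.

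Introns called first or last held a larger share of retained ones than internal introns, but the place was read from unlike models. Retained introns took it only from splicing models that shared another intron with a retaining model, and other introns from every splicing model. The part of this in the difference was not tested. Of introns called last, 6.51% were retained (437 of 6717, exact 95% interval 5.93 to 7.12%). Of first introns 5.38% were retained (4.88 to 5.91%) and of internal introns 3.87% (3.71 to 4.04%). By place in the annotation, retained introns made up 13.6% of introns in 3′ untranslated regions (42 of 309), 6.07% of those in 5′ untranslated regions and 3.61% of those within coding sequence. They made up 15.3% of introns found in no transcript that GENCODE classes as protein_coding. This class also holds introns of other isoforms of coding genes, such as Srsf7 and Sf3b1. The retaining exon was an internal exon for 63.8% of the 3091 introns, the last exon for 26.7% and the first exon for 17.6%, where an intron can count more than once. In 1646 introns (53.3%) the retained form rested on 1 model, and in 425 (13.7%) on 5 or more. Both forms were found in at least 1 same library for 2811 introns (90.9%).

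The retained form was often itself annotated. Of the annotated retained introns, 47.2% lay inside an annotated exon (1233 of 2615), against 7.99% of all annotated introns. An exon of a transcript that GENCODE classes as retained_intron held 37.2% of the annotated retained introns and 6.58% of all annotated introns. In coding sequence, an in-frame stop codon was found in 90.7% of the retained introns (1982 of 2186) and in 96.1% of all annotated coding introns, but within length classes the shares lay close together, at 68.8% against 70.3% up to 100 nt and 98.0% against 97.3% from 201 to 400 nt. In 57 retained coding introns there was no in-frame stop codon and the length was divisible by 3, so the frame would run through. This is 2.61% (exact 95% interval 1.98 to 3.37%), against 1.06% of all annotated coding introns (0.98 to 1.15%). These shares were not matched for length, and the part of length in the difference was not tested. The 102-nt intron of Akap8l, a nuclear protein gene, was 1 of the 57, and was retained in 6 naive models, 3 undivided models and 1 model after 2 divisions. A 228-nt intron of Sept1, a septin gene, was retained in 5, 2 and 1 models of those libraries, and a 168-nt intron of Tap1, which encodes a subunit of the peptide transporter of antigen presentation, in 2, 1 and 2.

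Unannotated introns were found among the retained ones more often than in the whole set. On the reference chromosomes, 449 of 3064 retained introns were not in GENCODE M21, so 85.3% were annotated, against 96.2% of all 68209 introns. A gap inside an exon meets the rule once another model keeps that exon whole and shares an intron. An exon of a protein_coding transcript held 36.1% of the 449, against 7.76% of the annotated retained introns, and any annotated exon held 60.8% (273 of 449). The part of the rule in the difference was not tested. Of the 449, 34 were shorter than 30 nt and 26.5% ended in dinucleotides other than GT-AG, GC-AG and AT-AC. A direct repeat of at least 8 nt at both ends, which leaves the position of a gap open, was found in 19 of the 449 (4.23%), in 8 of 2615 annotated retained introns (0.306%) and in 0.224% of all annotated introns. The shortest gaps, chosen here after their values were seen, include 6 nt in Pkm and 7 nt in Eef1a1, and their origin was not tested. Without gaps under 30 nt, 3057 retained introns were left.

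The Xbp1 gap is of another kind. Xbp1 encodes a transcription factor of the unfolded protein response, and its mRNA is known to lose a short stretch in the cytoplasm through the nuclease IRE1, without the spliceosome, which shifts the reading frame. A gap of 26 nt, at chr11:5524278-5524303 on the plus strand of GRCm38, was in the list of retained introns, and it was named after its values were seen. It was spliced in no naive model, 1 undivided model and 1 model after 2 divisions, and retained in 1, 2 and 3. Of 2 RefSeq transcripts of the gene, 1 carries this gap, which the GENCODE release used here does not. Its length is not divisible by 3 (remainder 2), and its borders could be moved by 6 bases without changing the spliced sequence. The removed bases are in capitals, and the next 12 exon bases follow in lower case.
Xbp1 gap: GCAGCACTCAGACTATGTGCACCTCT
Xbp1 exon bases after the gap: gcagcaggtgca

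The share of introns with a retained form was highest in the naive library and lowest after 2 divisions. Of introns spliced in a library, 3.1% also had a retained form there in the naive library (1441 of 46456, exact 95% interval 2.95 to 3.26%), 2.57% in the undivided library (1413 of 55054, 2.44 to 2.7%) and 2.29% after 2 divisions (1133 of 49584, 2.16 to 2.42%). Over the 32846 introns that were spliced in all 3 libraries, the shares were 3.28%, 2.92% and 2.43% in the naive library, undivided cells and cells after 2 divisions (1076, 959 and 798 introns). Counted by models, 18.8% of the naive models with several exons kept at least 1 retained intron (1700 of 9047), against 13.2% of undivided models and 12.1% of models after 2 divisions. The count by models also takes in unannotated gaps, whose part was not tested. The 6-nt Pkm gap, for example, was kept in 3, 17 and 17 models and spliced in 1 undivided model. The libraries also differed in number of models, in the share of models with a lone exon, in model length and in sequencing cell. Models with several exons that kept no retained intron had median lengths of 2218.0, 2019.0 and 1944.0 nt in the naive, undivided and 2-division libraries. The part of these differences in the shares was not tested.

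**Figure D3:**
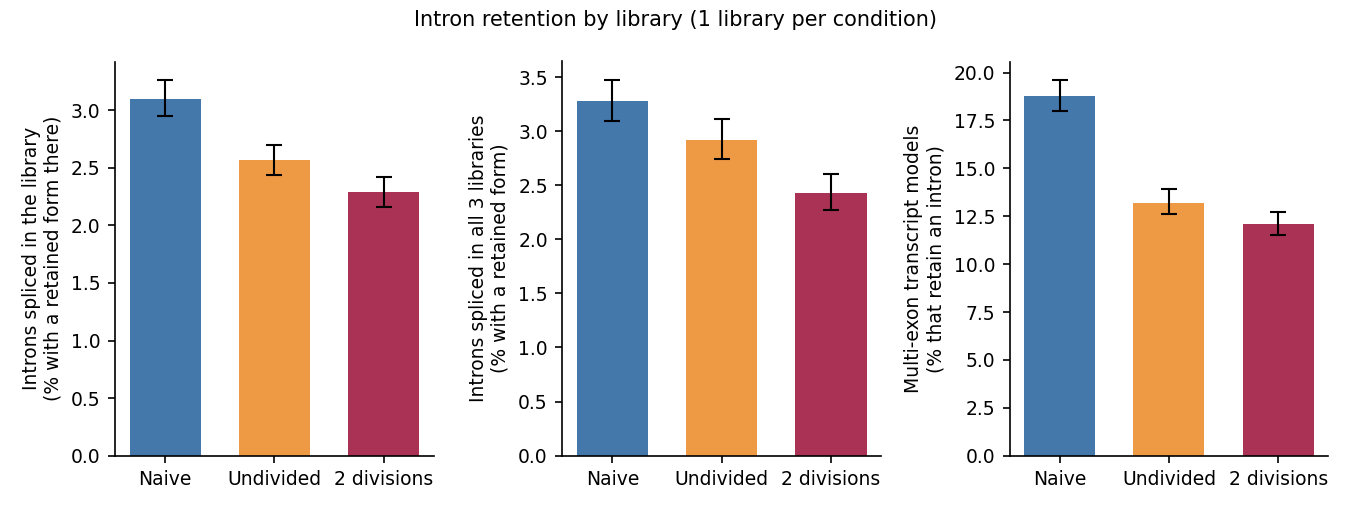
Bars show, for the naive library, the undivided library and the library after 2 divisions (1 each), the percent of introns spliced in the library with a retained form there (left), the same over introns spliced in all 3 libraries (middle) and the percent of models with several exons that retain an intron (right), with exact 95% intervals as error bars. In the middle panel the shares were 3.28%, 2.92% and 2.43%, and the naive bar is the highest in each panel. The right panel also counts models that kept an unannotated gap.

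The order of the libraries was the same in 3 of 4 length classes. Among introns of up to 200 nt spliced in all 3 libraries, 7.03% had a retained form in the naive library, 6.28% in the undivided library and 5.36% after 2 divisions. From 201 to 500 nt the shares were 5.48%, 5.58% and 4.76%, so here the undivided library was not below the naive one. From 501 to 1000 nt they were 4.18%, 3.77% and 3.11%, and over 1000 nt 1.16%, 0.827% and 0.623%. Retaining models ended before an A-rich genomic stretch, a sign of priming inside a transcript, in 17.4% of cases in the naive library, 14.6% in the undivided library and 15.2% after 2 divisions, against 25.1%, 20.1% and 20.5% of the other models with several exons. A poly(A) signal stood before the end of 73.8%, 75.7% and 74.9% of the retaining models, against 66.6%, 68.0% and 68.5% of the others.

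Some introns were retained in several libraries and many in 1 alone. Of the introns spliced in all 3 libraries and retained in the naive library, 45.2% were also retained in the undivided library (486 of 1076, exact 95% interval 42.2 to 48.2%) and 38% after 2 divisions (35.1 to 41.0%). Of those retained after 2 divisions, 56.6% were also retained in the undivided library (452 of 798) and 51.3% in the naive library. Among 1810 retained introns that were spliced in all 3 libraries, 324 were retained in all 3, which is 0.986% of the 32846 introns. Retention in 1 library alone was found for 505 introns in the naive library (1.54% of the 32846), 345 in the undivided library (1.05%) and 261 after 2 divisions (0.795%), and most of these rested on 1 model (439, 329 and 254 introns). A further 162 were retained in naive and undivided cells (0.493%), 85 in the naive library and after 2 divisions (0.259%) and 128 in both activated libraries (0.39%). The retained form lay inside an annotated exon for 69.8% of the introns retained in all 3 libraries, against 38.8%, 34.5% and 40.6% of those retained in the naive library, the undivided library or the library after 2 divisions alone.

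Some introns had both forms in all 3 libraries, and some of these had many retaining models. The gene Hnrnpa2b1 encodes a pre-mRNA binding protein, and a 156-nt intron of its 3′ untranslated region was retained in 10 naive models, 10 undivided models and 8 models after 2 divisions. The same intron was spliced in 7, 14 and 15 models, so the spliced models outnumbered the retaining ones only in the activated libraries. An overlapping 1355-nt intron of the region was retained in 8 naive models, 7 undivided models and 5 models after 2 divisions. In Srsf7, an SR protein gene, a 180-nt intron was retained in 7, 8 and 5 models and spliced in 9, 2 and 3 models of the naive, undivided and 2-division libraries. In Pcyt2, which encodes an enzyme of phosphatidylethanolamine synthesis, a 379-nt intron was retained in 4 naive models, 7 undivided models and 6 models after 2 divisions, and spliced in 2, 3 and 4.

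**Figure D4:**
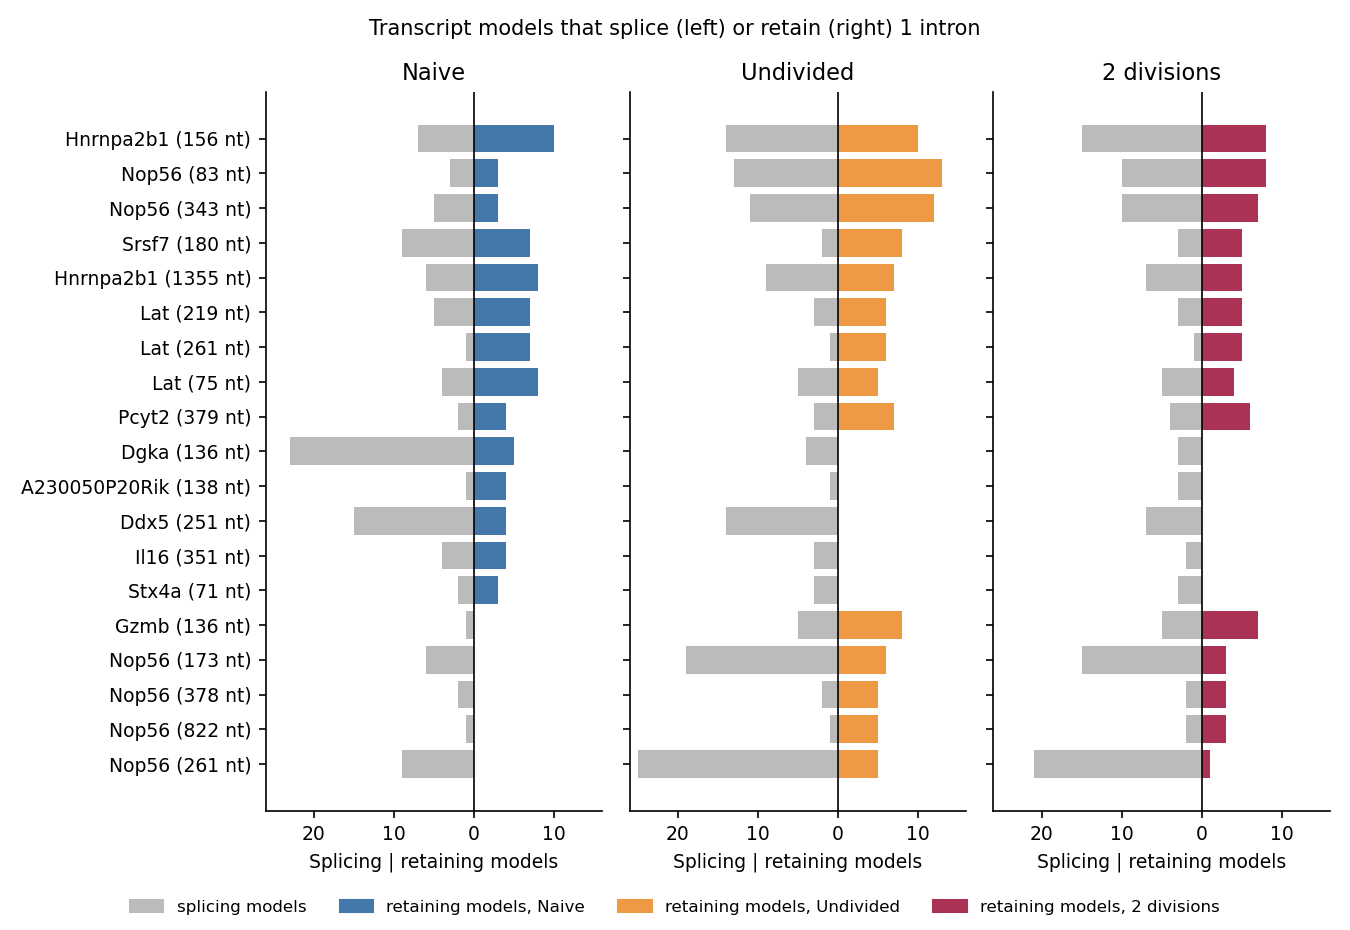
Number of transcript models that spliced (grey, left of 0) or retained (coloured, right of 0) each of 19 named annotated introns in the naive library, the undivided library and the library after 2 divisions, 1 library each and hence no error bars. The Hnrnpa2b1 156-nt intron was retained in 10, 10 and 8 models, and the Gzmb 136-nt intron in 0, 8 and 7.

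Among these introns the most retaining models belonged to an unannotated intron of Cd5, the gene of a surface receptor that dampens T cell receptor signals. This 117-nt GC-AG intron at chr19:10725126-10725242 lay in internal exons of all 30 retaining models, 7 in the naive library, 12 in the undivided library and 11 after 2 divisions, and was spliced in 1, 2 and 2. For such an intron the retained form is the annotated exon and the spliced form the rare one. A 144-nt unannotated intron in the last exon of the actin gene Actg1 was likewise retained in 7, 9 and 5 models and spliced in 1 model of each library. In all, 21 introns of 20 genes had more retaining than splicing models in each of the 3 libraries, and 16 of them were annotated. They include a 1451-nt intron of Sf3b1, which encodes a U2 snRNP protein (retained in 4, 3 and 2 models, spliced in 1 of each library), and a 709-nt intron in the 3′ untranslated region of Eif4a2, a translation initiation helicase gene (retained in 5, 6 and 5 models, spliced in 1 of each).

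Lat, the adaptor that links the activated T cell receptor to its downstream enzymes, had 10 retained introns, 8 of them annotated. Its 79-nt intron at chr7:126368107-126368185 carries no in-frame stop codon, but its length is not divisible by 3, so the frame after it would shift. This intron was retained in 9 naive models, 3 undivided models and 4 models after 2 divisions, and spliced in 4, 7 and 5. The neighbouring 75-nt intron was retained in 8, 5 and 4 models and spliced in 4, 5 and 5, and the 83-nt intron was retained in 6, 4 and 5 and spliced in 7, 6 and 4. A 219-nt intron upstream was retained in 7, 6 and 5 models and spliced in 5, 3 and 3, and an overlapping 261-nt intron was retained in the same numbers of models and spliced in 1 of each library. Of 16 models that retained the 79-nt intron, 12 also retained the 75-nt intron, against 17 of all 32 Lat models with several exons. The 83-nt intron was kept in 12 of the 16, against 15 of the 32, the 219-nt intron in 12 of the 16, against 18 of the 32, and the 131-nt intron in 4 of the 16, against 4 of the 32. Of 17 models that retained the 75-nt intron, 10 also retained the 83-nt intron. By models, 11 of 13 in the naive library, 8 of 10 in the undivided library and 7 of 9 after 2 divisions kept at least 1 annotated intron, with up to 6, 7 and 6 introns in a model.

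**Figure D5:**
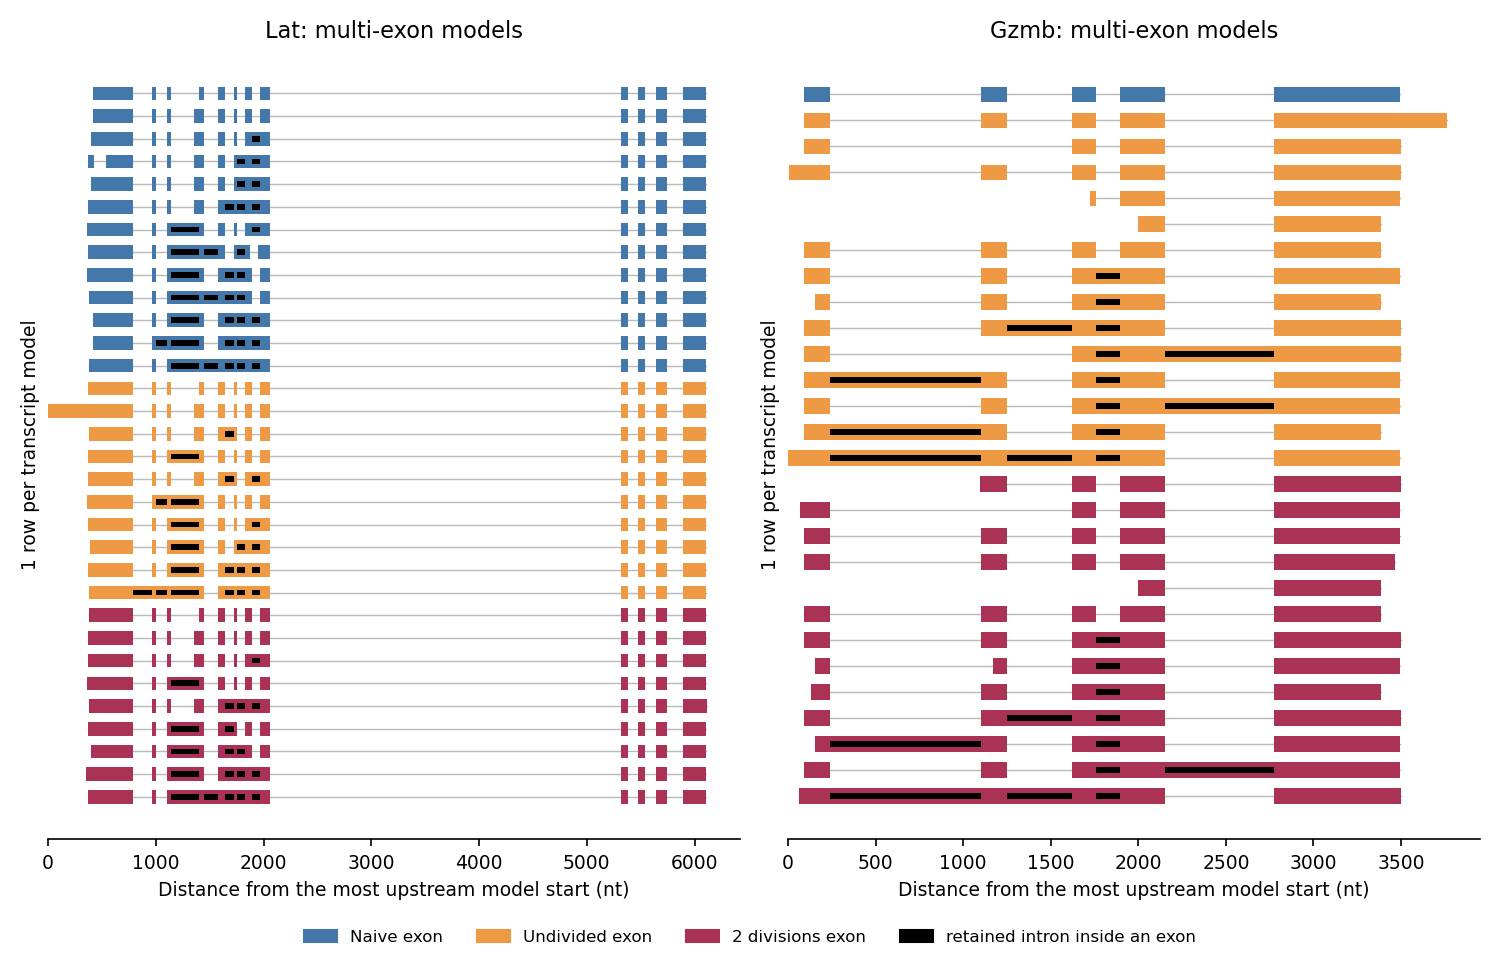
Map of the Lat and Gzmb models with several exons, 1 row per model and coloured by library, with exons as boxes, retained annotated introns as black bars and distance from the most upstream start in nt on the horizontal axis. In Lat, 11 of 13 naive models, 8 of 10 undivided models and 7 of 9 models after 2 divisions kept an intron, and in Gzmb 0 of 1, 8 of 14 and 7 of 13.

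Gzmb, the gene of the protease that cytotoxic granules carry, had retained introns in the activated libraries alone, but the naive library held 1 model of the gene. Its 136-nt intron at chr14:56260443-56260578 has no in-frame stop codon, but its length is not divisible by 3, so the frame after it would shift. This intron was retained in 8 undivided models and 7 models after 2 divisions, and spliced in 1 naive model, 5 undivided models and 5 models after 2 divisions. The 860-nt first intron was retained in 3 undivided models and 2 models after 2 divisions and spliced in 7 models of each. The 372-nt intron was retained in 2 models of each activated library, and the 619-nt intron in 2 undivided models and 1 model after 2 divisions. All 15 retaining Gzmb models kept the 136-nt intron, among them the 5 that kept the first intron, the 4 that kept the 372-nt intron and the 3 that kept the 619-nt intron. No model kept both the first and the 619-nt intron.

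Retention in the naive library alone, among introns spliced in all 3 libraries, was led by Dgka, whose product, diacylglycerol kinase alpha, removes the second messenger diacylglycerol and restrains T cell receptor signaling. The 136-nt Dgka intron at chr10:128731188-128731323 was retained in 5 naive models and in no activated model, and spliced in 23 naive models, 4 undivided models and 3 models after 2 divisions. The activated libraries thus held few Dgka models in which the intron could be seen at all, 5 and 4 with several exons against 34 in the naive library. A 368-nt Dgka intron was retained in 7, 1 and 1 models and spliced in 16, 3 and 2. Ddx5, an RNA helicase gene, had 2 such introns. The 251-nt intron was retained in 4 naive models and spliced in 15, 14 and 7 models, and the 82-nt intron was retained in 3 naive models and spliced in 16, 14 and 7. In Fos, the 117-nt last intron at chr12:85475700-85475816 was retained in 3 naive models and spliced in 5 naive models, 2 undivided models and 1 model after 2 divisions. Others were a 138-nt intron of A230050P20Rik (4 naive models), a 351-nt intron of the cytokine gene Il16 (4 naive models), a 71-nt intron of the membrane fusion gene Stx4a (3) and the 138-nt and 189-nt introns of Traf3ip3 (3 each). The Traf3ip3 introns were spliced in 7, 4 and 2 models and in 10, 4 and 2 models. All 3 retaining Stx4a models ended before an A-rich stretch, as did 1 of 4 for Il16 and 1 of 3 for Fos.

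Among introns spliced in all 3 libraries, retention in both activated libraries and not in the naive library was led, after Gzmb, by Nop56, a core protein of the box C/D snoRNPs that modify ribosomal RNA. A 173-nt Nop56 intron was retained in 6 undivided models and 3 models after 2 divisions, and spliced in 6 naive models, 19 undivided models and 15 models after 2 divisions. Overlapping Nop56 introns of 378 and 822 nt were each retained in 5 undivided models and 3 models after 2 divisions. Of the 9 models that retained the 173-nt intron, 6 ended before an A-rich stretch, and 5 of 8 for each overlapping intron. Among all retaining models the shares with such an end were 17.4%, 14.6% and 15.2% in the naive, undivided and 2-division libraries. A 261-nt Nop56 intron was retained in 0, 5 and 1 models and spliced in 9, 25 and 21. In Rpl4, which encodes a protein of the large ribosomal subunit, a 250-nt intron was retained in 0, 3 and 2 models and a 369-nt intron in 0, 2 and 3, with 5 naive models splicing each. In Pcyt2, a 244-nt and an overlapping 428-nt intron were each retained in 0, 3 and 2 models. A 532-nt intron of the class I pseudogene H2-T-ps was also in this group, but H2 genes are near-identical copies, so their models are uncertain. Without H2 genes 3033 retained introns were left.

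Among the same introns, retention in the undivided library alone was led by the 187-nt intron of Gas5, a noncoding gene that hosts snoRNAs, retained in 4 undivided models and spliced in 3 naive models, 6 undivided models and 10 models after 2 divisions. An 863-nt intron of Traf1, a signaling adaptor gene of TNF receptors, and a 998-nt intron of Pkmyt1, a kinase gene of the cell cycle, were retained in 3 undivided models each. After 2 divisions alone, a 214-nt intron of Arfrp1, a small GTPase gene, was retained in 3 models and spliced in 1 model of each library. The other leading introns there were retained in 2 models each, in the heat shock factor gene Hsf1 (80 nt), in Rpl4 (92 nt), in the actin gene Actb (95 nt), in the aldolase gene Aldoa (95 nt) and in Tbl3 (100 nt), a gene of ribosome assembly. The 92-nt Rpl4 intron was spliced in 5 naive models, 14 undivided models and 13 models after 2 divisions.

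Introns that hold an annotated snoRNA were retained more often than others of their length. Of 255 such introns, 46 were retained, or 18% (exact 95% interval 13.5 to 23.3%), against 3.99% of all annotated introns. Up to 300 nt, 19 of 55 were retained (34.5%, 22.2 to 48.6%), against 8.74% of all annotated introns of that length, and from 301 to 1000 nt 20 of 80 (25%, 16 to 35.9%), against 5.95%. These classes match length and not the number of splicing models, whose part was not tested. Over all introns, 9.19% of those with 10 or more splicing models were retained, against 4.48% in all. Some of the 46 overlap and hold the same snoRNA, such as Nop56 introns of 343, 617 and 822 nt with Gm23187. The 46 introns lay in 26 genes, and 15 had a retained form in the naive library, 29 in the undivided library and 33 after 2 divisions. Over the 36 that were spliced in all 3 libraries the numbers were 12, 21 and 27, the reverse of the order over all introns. These counts rest on few genes, among them Gas5, Rpl4 and Nop56, whose numbers of models with several exons also differed, for Nop56 with 9 naive models, 30 undivided models and 22 models after 2 divisions. In Nop56, the 343-nt intron with the snoRNA Gm23187 was retained in 3, 12 and 7 models and spliced in 5, 11 and 10, and the 83-nt intron without a snoRNA was retained in 3, 13 and 8 and spliced in 3, 13 and 10. Many of these retaining models ended before an A-rich stretch, 14 of 22 for the 343-nt and 17 of 24 for the 83-nt intron. In Gas5, a 193-nt intron was retained in 3, 7 and 6 models and spliced in 0, 3 and 4. In Rack1, a ribosome-bound scaffold gene, a 438-nt intron with Snord96a was retained in 2 models of each library, and in Ppan, a ribosome assembly gene, a 194-nt intron was retained in 2 naive models alone.

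Retained introns were also counted over lists of genes of known function, beside all genes. Over all 6663 genes with an annotated intron in the libraries, 21.1% had an annotated retained intron, and 12.7% had one retained in the naive library, 12.3% in the undivided library and 10.5% after 2 divisions. Of all 2615 annotated retained introns, 1506, 1373 and 1150 were retained in those libraries. Of the 1776 spliced in all 3 libraries, 1054, 936 and 779 were retained. Counts over all introns of a list stand beside the former, and counts over introns spliced in all 3 beside the latter. The share of genes with a retained intron was above 21.1% in every list but that of the minor spliceosome (0 of 4). Counted by annotated introns, the share was 3.99% over all genes, 4.27% for DNA replication and 7.14% to 22.9% in the remaining lists. The lists were not matched for number of introns or of models per gene, whose part was not tested. Over all introns, 9.19% of those with 10 or more splicing models were retained, against 4.48% in all. Of SR protein genes, 4 of 9 had one (Srsf3, Srsf5, Srsf7 and Srsf11), and of their 17 introns 17 were retained in the naive library, 12 in the undivided library and 13 after 2 divisions. Of the 14 spliced in all 3 libraries, 14, 12 and 12 were retained. An 865-nt Srsf3 intron was retained in 7, 5 and 1 models and spliced in 2, 1 and 1, and a 263-nt Srsf5 intron was retained in 5, 3 and 4 and spliced in 4, 3 and 2. All 5 genes for CLK and SRPK kinases, which phosphorylate SR proteins, had a retained intron, with 8, 9 and 8 of 16 introns retained in the naive, undivided and 2-division libraries. Over the 9 spliced in all 3 libraries the numbers were 7, 6 and 5. The 387-nt Clk1 intron was retained in 5 naive models, 2 undivided models and 2 models after 2 divisions, and spliced in 2, 2 and 1. Of hnRNP genes 8 of 20 had a retained intron, with 15, 16 and 10 of 19 introns retained in those libraries. Over the 15 hnRNP introns spliced in all 3 libraries the numbers were 11, 14 and 9.

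The list of early spliceosome genes, which hold factors of the U1 and U2 snRNPs and their partners, had a retained intron in 13 of 20 genes. Of its 33 retained introns, 26 were retained in the naive library, 13 in the undivided library and 13 after 2 divisions, beside 1506, 1373 and 1150 of the 2615 over all genes. Of the 23 spliced in all 3 libraries, 20, 11 and 11 were retained. Rbm39 gave 8 of the 33, many of them overlapping, and a naive model of 2 exons kept 10 Rbm39 introns in its last exon, which ended before an A-rich stretch. A 306-nt Sf3b1 intron was retained in 4, 2 and 2 models and spliced in 3 models of each library, and a 986-nt intron of the U1 factor gene Luc7l was retained in 3, 3 and 2 and spliced in 1, 2 and 2. None of the 4 genes of the minor spliceosome list seen in the libraries had a retained intron among 33 annotated introns. Of genes with retained introns known from other cell systems, 11 of 12 had one here, with 29, 21 and 26 of 34 introns retained in the naive library, undivided cells and cells after 2 divisions. Over the 30 spliced in all 3 libraries the numbers were 28, 21 and 22. In Ogt, which encodes the O-GlcNAc transferase, a 107-nt intron was retained in 1, 2 and 3 models and spliced in 1 of each library, and in Ddx5 a 212-nt intron was retained in 7, 3 and 1 and spliced in 12, 10 and 6.

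Among T cell genes, beside 21.1% of all genes, 12 of 32 genes of T cell receptor signaling had a retained intron, with 25, 23 and 13 of 36 introns retained in the naive library, undivided cells and after 2 divisions. Lat and Dgka gave 13 of these 36. Over the 33 introns spliced in all 3 libraries the numbers were 22, 22 and 12. In Lck, the kinase that starts the signal, a 286-nt intron was retained in 3, 1 and 1 models and spliced in 9, 4 and 4, and in Zap70, the kinase it activates, a 372-nt intron was retained in 1, 2 and 1 and spliced in 1, 6 and 2. Of genes that T cell stimulation is known to induce, 13 of 24 had a retained intron, and of their 33 introns 4 were retained in the naive library, 28 in the undivided library and 18 after 2 divisions. Some of these genes, Tnfrsf4 among them, had no naive model, and over the 16 introns spliced in all 3 libraries the numbers were 4, 14 and 8, beside 1054, 936 and 779 of 1776 over all genes. In Tnfrsf4, the gene of the costimulatory receptor OX40, a 376-nt intron was retained in 7 undivided models and 5 models after 2 divisions, and spliced in 3 undivided models and 2 models after 2 divisions, with no naive model. A 79-nt Tnfrsf4 intron was retained in 4 undivided models and 3 models after 2 divisions, and spliced in the same numbers. Of genes typical of resting, naive T cells 6 of 15 had a retained intron, with 10, 4 and 3 of 10 introns retained, but some of these genes, such as Il7r, had no activated model that spliced the intron, and over the 6 introns spliced in all 3 libraries the numbers were 6, 3 and 2.

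Genes of growth and metabolism made up the last lists. Of proteasome genes, 15 of 34 had a retained intron, and all 29 of their introns were spliced in all 3 libraries, with 16 retained in the naive library, 14 in the undivided library and 21 after 2 divisions, beside 1054, 936 and 779 of 1776 over all genes. In Psmb9, a subunit gene of the immunoproteasome, a 537-nt intron was retained in 3, 3 and 2 models and spliced in 1, 3 and 2. In Psmc5, a proteasome ATPase gene, a 78-nt intron was retained in 2, 1 and 3 models and spliced in 1, 2 and 3. Of glycolysis genes 8 of 16 had a retained intron, with 3, 10 and 12 of 15 introns retained in the naive, undivided and 2-division libraries, and 2, 7 and 10 of the 12 spliced in all 3. A 436-nt intron of Tpi1, the triose phosphate isomerase gene, was retained in 0, 1 and 2 models and spliced in 1, 5 and 5. Of DNA replication genes 13 of 30 had one, with 4, 8 and 10 of 19 introns retained, and 4, 5 and 8 of the 15 spliced in all 3. In Mcm7, a subunit gene of the replicative helicase, introns of 604 and 327 nt were retained in 1 model each, after 2 divisions. Of genes of translation initiation and ribosome biogenesis 18 of 37 had a retained intron, with 22, 28 and 30 of 47 introns retained in those libraries, and 21, 23 and 27 of the 42 spliced in all 3. Nop56 and Eif4a2 gave 18 of the 47. Each list was chosen with earlier results of these data known, and its counts are descriptions of 1 library per condition.

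The genes with the most retained introns were Aup1, a gene of protein degradation at the endoplasmic reticulum, and Nop56, with 12 each, then Arhgap45 and Eif4a2, with 11. Gas5, Lat, Ptpn6, the gene of the phosphatase SHP-1, and Rbm39 had 10 each. In Aup1, 3 introns were retained in the naive library, 12 in the undivided library and 2 after 2 divisions, and 1 undivided model kept all 12. In Arhgap45, 11 were retained in the naive library, 3 in the undivided library and 2 after 2 divisions, where 25, 7 and 4 models had several exons. Psme1, the gene of a proteasome activator subunit, had 9 retained introns, and 1 model after 2 divisions kept all 9 in its last exon, which followed a lone spliced intron. A Nop56 exon kept 10 introns in 2 undivided models, and a Maf1 exon kept 9 in 1 naive model (Maf1 encodes a repressor of RNA polymerase III). Models with at least 3 retained introns made up 19.8% of the retaining models in the naive library (336 of 1700), 17.0% in the undivided library and 16.4% after 2 divisions.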

How the data were processed

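Total RNA of naive, undivided and 2-times divided CD4+ T cells was read on the PacBio platform (Iso-Seq), with 1 library per condition. The methods give this path to the files: consensus calling by ccs, primer trimming by lima, selection by isoseq3 of reads whose poly(A) tail spans at least 20 nt and their clustering, alignment by pbmm2, collapse into models and annotation by SQANTI3. The submitters' processing notes list minimap2 and Subread among their tools, and the builds GRCm38 and mm10. The deposited files list the exon positions of each model, with no read counts.

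Introns were taken as the gaps between the exons of a model and were compared by chromosome, strand, start and end. Sequence came from the GRCm38 genome and annotation from GENCODE M21, which is older than the release named in the methods, so an intron called unannotated here may be annotated there. Of the retained introns 27 lay on patch or unplaced sequences and were left out where sequence or annotation was needed, which leaves 3064. Position was called first, internal or last where the splicing models that were read agreed. For retained introns these were the splicing models that met the rule with a retaining model, and for other introns all splicing models. A 3′ end was called A-rich where at least 12 of the next 20 genomic bases were A, and a poly(A) signal was sought in the last 50 nt. Shares carry exact Clopper-Pearson 95% intervals. Introns were named by the number of retaining models within classes of libraries, by length, by match to the minor-type site and by gene list, and the members and lists were chosen with earlier results of these data known. The search was tested on simulated data of 2000 genes and found 400 of 400 true retained introns and 0 false ones. The simulated models followed the same rule and had no alternative splice sites or alignment gaps. The test thus checks the code and gives no rate of false retained introns in the real models. Alternatives were a longer exon flank, more shared introns, annotated introns, canonical splice sites, a minimum length, internal exons, ends that are not A-rich, reference chromosomes, at least 2 retaining models and leaving out each library. Python 3.11.15, numpy 2.4.6, pandas 2.3.3, scipy 1.17.1 and matplotlib 3.10.9 were used.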

Additional observations from a re-analysis of the deposited data

How the results depend on the processing

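Leaving out 1 library changed the number of retained introns from 3091 to between 2130, without the naive library, and 2480, without the library after 2 divisions. Retention in an exon neither first nor last left 1972 introns, at least 2 retaining models left 1445 (median length 287.0 nt), and introns spliced in all 3 libraries, an alternative chosen after seeing the data, left 1810. The share of spliced introns with a retained form in the same library, in naive cells, undivided cells and after 2 divisions, was 2.89%, 2.41% and 2.13% with at least 2 other shared introns, 2.81%, 2.32% and 2.11% for annotated introns and 2.07%, 1.69% and 1.41% for retention in an exon neither first nor last. It was 2.65%, 2.25% and 1.97% without retaining models that end before an A-rich stretch, 1.83%, 1.7% and 1.58% with at least 2 retaining models, and 3.28%, 2.92% and 2.43% for introns spliced in all 3 libraries. Each of these alternatives kept fewer introns or counted fewer models. The shares rose above the main 3.1%, 2.57% and 2.29% for introns spliced in all 3 libraries and fell below them in the others listed here. In all 12 alternatives that gave a share for every library, the naive library had the highest share and the library after 2 divisions the lowest. Other alternatives chosen after seeing the data (overlapping introns counted once, no gaps under 30 nt, no H2 genes) moved none of these values beyond their interval or 1.5 times the count. No paired analysis was possible because the labels give no replicate numbers and there was 1 library per condition. Depth limits these data through the number of models: 53.3% of the retained introns rest on 1 retaining model, and an intron with no retained form here may have had one in transcripts that were not sequenced.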
